A study of Mus musculus with 42 samples.

Results

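Nuclear-encoded oxidative phosphorylation genes were followed in sorted mouse microglia across 12 groups defined by genotype, age and Ki67 staining. The members were taken from the deposited table by name, as genes beginning with Nduf, Uqcr, Sdh, Atp5 or Cox4 to Cox8, together with Cycs and Cyc1, and pseudogene rows were left out. The rule used no measured value. It gave 98 of the 19151 genes in the table, and 96 of them reached a mean log2 value of 7 in at least 1 group and were tested. Cox7b2, a testis form, and Ndufa4l2 did not reach this level. Complex I accounted for 45 members, complex II for 8, complex III for 9, complex IV for 19 including Ndufa4, and complex V for 16, and Cycs encodes the mobile carrier cytochrome c. One complex I member, Ndufa13, has a second row in the table, kept here as Ndufa13.1. The subunits encoded in mitochondrial DNA are not analysed here.

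The study compared male WT mice on a C57BL/6 background with APP/PS1 littermates, a transgenic line that deposits amyloid with age. Brain cells of mice aged 4, 6 or 12 months were fixed and sorted as CD11b+/CD45+ cells, a gate used for microglia, and divided by an antibody stain for Ki67, a nuclear protein of cycling cells. WT Ki67+ microglia gave 5, 2 and 4 libraries at the 3 ages in order, and WT Ki67- microglia gave 5, 3 and 3. APP/PS1 animals gave 4, 2 and 4 libraries of each gate. Each library came from at most 400 cells. The labels do not say which Ki67+ and Ki67- libraries came from the same mouse, so the p-values measure only the spread between these libraries.

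Oxidative phosphorylation takes electrons from NADH at complex I and from succinate at complex II, passes them through complex III and cytochrome c to oxygen at complex IV, and uses the proton gradient built on the way to make ATP at complex V. Complex I, III, IV and V are assembled from subunits of both the nuclear and the mitochondrial genome, whereas complex II is entirely nuclear. The nuclear subunits fall into core or catalytic subunits, accessory subunits that surround them, and assembly factors that are absent from the finished complex. Several complex IV subunits exist as a general form and a form of heart, skeletal muscle, lung or testis. Dividing cells and resting microglia both use this pathway, alongside glycolysis.

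Values are given on the deposited log2 scale, from which the authors had removed 10 surrogate variables, and a difference is the first group minus the second, ± SE, with a Benjamini-Hochberg adjusted p from limma over 14910 genes. A gene was called at an adjusted p under 0.05. Markers of other cells moved with some groups. The mean of 6 microglia markers lay between 13.62 and 14.25 in 11 groups but was 12.74 in WT Ki67+ at 6 months. Oligodendrocyte markers averaged 12.71 in APP/PS1 Ki67+, 11.61 in WT Ki67+ and 10.37 in WT Ki67- at 6 months, above every other group. Astrocyte markers averaged 9.05 to 11.13 in Ki67+ groups and 7.93 to 8.75 in Ki67- groups. Mean Mki67 mRNA was not higher in Ki67+ in 3 of the 6 comparisons. Its Ki67+ and Ki67- means there were 7.73 and 8.82 in WT mice at 12 months, 8.03 and 8.05 in WT mice at 4 months, and 7.59 and 7.83 in APP/PS1 mice at 6 months. They were 7.85 and 7.74 in WT mice at 6 months and 8.59 and 7.77 in APP/PS1 mice at 12 months, with overlapping libraries. All Ki67+ libraries lay above all Ki67- libraries only in APP/PS1 mice at 4 months, with means of 8.84 and 7.58. Ki67+ and Ki67- therefore name the sort gate throughout. The 3 WT Ki67- libraries at 12 months were almost the same after the surrogate removal, with correlations of at least 0.998 and a median SD over members of 0.0307, against 0.14 to 0.42 in the other groups. One pair in each of WT Ki67- at 4 months and WT Ki67+ at 12 months also correlated above 0.99. The main results that rest on these libraries are therefore also given with near-identical libraries counted once. That setting leaves WT Ki67- at 12 months as 1 library, assumed to vary like the other groups, so its adjusted p has no replicates of that group behind it. Leaving out 1 of the 3 libraries does not test that group either, since the other two are near copies. Counts of the comparisons in which a member was called use all libraries.

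The mean over the 96 tested members was lowest in WT Ki67+ at 4 months, 9.25 ± 0.13 (SD, n = 5), and highest in APP/PS1 Ki67- at 12 months, 9.80 ± 0.15 (SD, n = 4). At 12 months it was 9.27 ± 0.04 (SD, n = 4) in WT Ki67+, 9.47 ± 0.02 (SD, n = 3) in WT Ki67- and 9.50 ± 0.10 (SD, n = 4) in APP/PS1 Ki67+. The APP/PS1 Ki67- libraries at 12 months spanned 9.68 to 10.00, above all 3 WT Ki67- libraries of that age, which spanned 9.45 to 9.49. At 6 months the mean was 9.68 in APP/PS1 Ki67-, 9.67 in APP/PS1 Ki67+, and 9.55 in both WT Ki67+ and WT Ki67-. The highest WT Ki67- library of 6 months, at 9.79, lay within the APP/PS1 Ki67- span of 12 months. In bulk libraries, fewer cells of a type and less RNA per cell cannot be told apart.

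**Figure D1:**
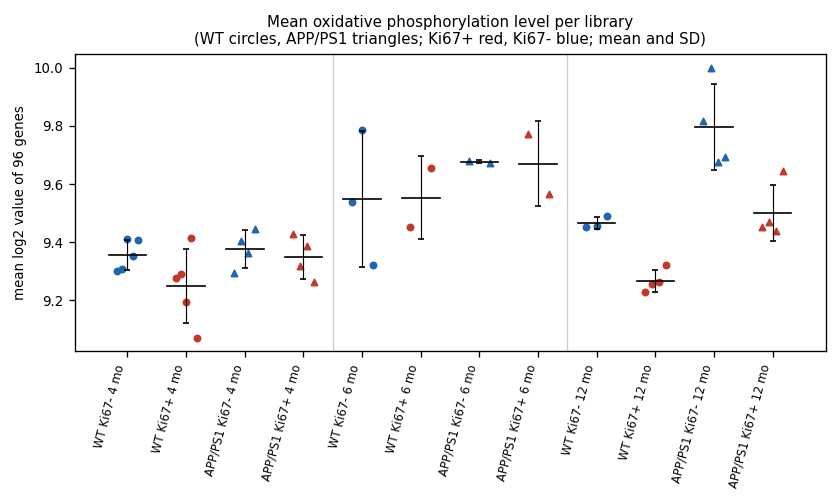
Mean log2 value over the 96 tested oxidative phosphorylation genes in each of the 42 libraries, by genotype, Ki67 gate and age, with 1 point per library, a bar at the group mean and whiskers of 1 SD. The groups lie within 9.25 to 9.80, and the APP/PS1 Ki67- libraries at 12 months are the highest group.

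Single members moved more than their mean. The group means of a member spanned a median of 1.38 on the log2 scale, against 1.48 for all tested genes. The APP/PS1 Ki67- group at 12 months held the highest mean of 26 members, 27.1% of those tested, against 6.04% of all tested genes. APP/PS1 Ki67- at 6 months held that of 18 members, 18.8%, against 7.93% of all genes. WT Ki67+ at 6 months held the highest mean of 22 members, 22.9%, against 18.5% of all genes, and also the lowest mean of 15, 15.6% against 25.0%. WT Ki67+ held the lowest mean of 13 members at 4 months, 13.5% against 3.02%, and of 16 at 12 months, 16.7% against 8.60%. Of the 96 tested members, 24, or 25.0%, were called in none of the 20 comparisons of Ki67 gate, genotype or age, against 20.8% of all tested genes. Among them were Sdha and Sdhb, the catalytic pair of complex II, Cyc1, the cytochrome c1 of complex III, Ndufs1, the largest core subunit of complex I, and Atp5b, the catalytic beta subunit of complex V.

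The first question was whether the genes differed between Ki67+ and Ki67- microglia of the same genotype and age. They did so in both directions, and member by member. For WT microglia the share called in either direction was close to that of all tested genes. It was 35.4% of members against 33.8% of all genes at 4 months. The shares were 33.3% against 36.8% at 6 months, and 45.8% against 46.3% at 12 months. For APP/PS1 microglia they were 18.8% against 21.5%, 4.17% against 7.81%, and 21.9% against 17.8%, in order of age. In WT mice at 4 months, 14 members were higher and 20 lower in Ki67+, with a median difference of -0.11 against 0.06 over all tested genes, of which 19.3% were higher and 14.5% lower. With the median of each library subtracted the same comparison gave 7 higher and 23 lower, and with near-identical libraries counted once 9 and 20. At 6 months 15 were higher and 17 lower, with a background of 17.8% and 19%, and without WT Ki67+ replicate 2 the total fell from 32 to 19. At 12 months 13 were higher and 31 lower, with a median of -0.34 against 0.09 over all genes and a background of 26.2% and 20.1%. Subtracting library medians moved the median at 12 months to -0.47 and gave 10 and 37, and counting near-identical libraries once left 4 higher and 9 lower, where 12.3% and 8.34% of all tested genes were called.

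With all libraries, fewer members were called in APP/PS1 than in WT mice at each age, and so were fewer of all tested genes. At 12 months the setting with near-identical libraries counted once cannot decide this order, since it leaves 1 WT Ki67- library. In APP/PS1 mice at 4 months 10 members were higher and 8 lower in Ki67+, where 12.3% and 9.24% of all tested genes were called. The split was 6 and 14 with library medians subtracted. Without APP/PS1 Ki67- replicate 2 the total at 4 months fell from 18 to 10. At 6 months 3 were higher and 1 lower, against 5.21% and 2.6%, and these 4 calls fell to 1 and 2 without APP/PS1 Ki67+ replicate 1 and 2 in turn, and to 0 without APP/PS1 Ki67- replicate 2. At 12 months 2 were higher and 19 lower, with a median of -0.31 and a background of 10.6% and 7.24%. Over the 6 comparisons 21 members were called higher only, 37 lower only, 3 in both directions and 35 in none. Called lower in at least 4 comparisons were 10 members, 10.4% of those tested, against 6.29% of all genes. Called higher in at least 4 were 4, 4.17% against 8.7%, and 36.5% were called in none, against 29.7%. Astrocyte markers moved with the gate as well, with all 6 called higher in Ki67+ at 4 and 12 months in both genotypes and 2 and 3 of 6 at 6 months in WT and APP/PS1 mice, and of 6 neuron markers between 1 and 4 were called higher in each comparison. Their part in the members' differences was not tested.

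**Figure D2:**
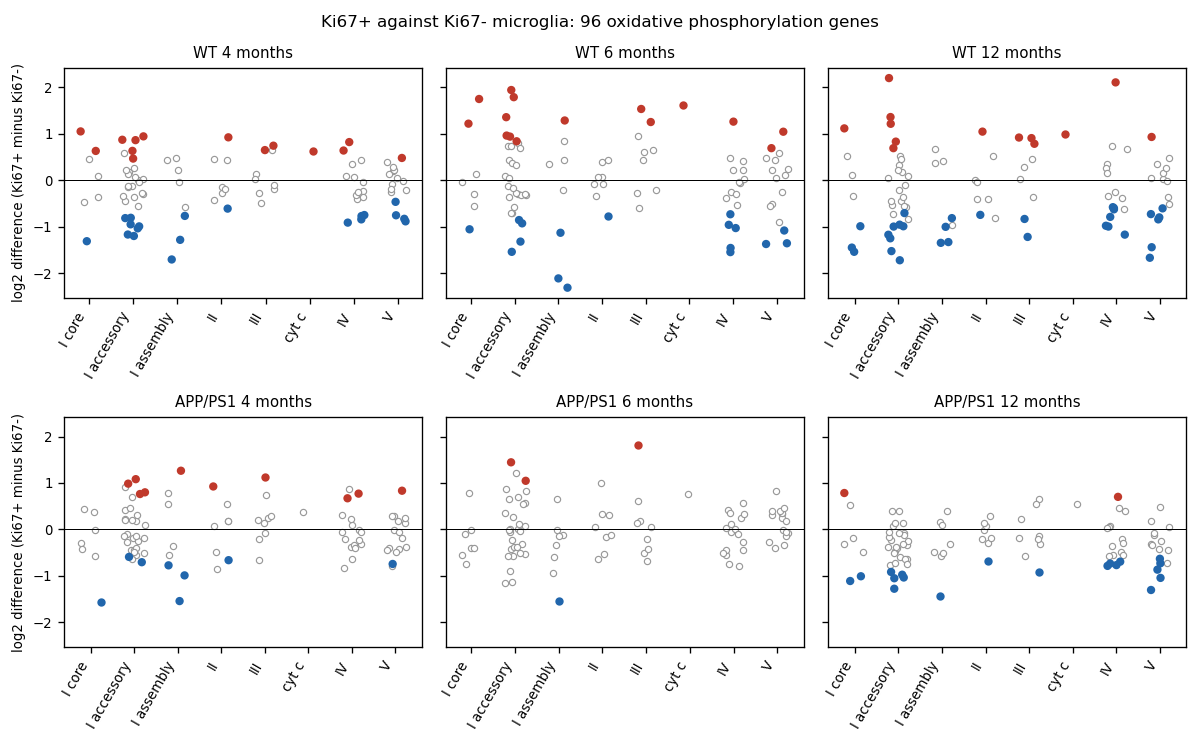
Difference on the log2 scale between Ki67+ and Ki67- microglia for every tested member, by complex, in the 6 comparisons of genotype and age. Each point is 1 gene, filled red where called higher and blue where called lower. Called points lie on both sides of 0, and at 12 months in APP/PS1 mice 19 of 21 called points lie below it.

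The promoters of 5 members are shown because the results below turn on them, as the 150 bases before the first RefSeq start on GRCm38.p6, read 5′ to 3′ along the gene. Ndufb4 was lower in Ki67+ in 5 of the 6 comparisons, and its stretch is chr16:37654369-37654518, minus strand. Ndufc2 was higher in 5, and its stretch is chr7:97399853-97400002, plus strand. Cox5a and Cox5b are partner subunits of complex IV that moved in opposite directions, and their stretches are chr9:57521082-57521231, plus strand, and chr1:36691337-36691486, plus strand. Ndufa8 stood apart in a single group, and its stretch is chr2:36049339-36049488, minus strand. Capitals mark matches, on either strand, to the letters searched for SP1 (GGGCGG), NRF1 (GCGCATGC) or the CCAAT box, and none of the motifs searched contains another.
Ndufb4: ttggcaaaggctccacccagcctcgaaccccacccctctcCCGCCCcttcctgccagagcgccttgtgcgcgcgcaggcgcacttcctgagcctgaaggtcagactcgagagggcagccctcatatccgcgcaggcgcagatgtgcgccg
Ndufc2: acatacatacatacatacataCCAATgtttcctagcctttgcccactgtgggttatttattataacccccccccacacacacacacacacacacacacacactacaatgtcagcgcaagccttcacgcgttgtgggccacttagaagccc
Cox5a: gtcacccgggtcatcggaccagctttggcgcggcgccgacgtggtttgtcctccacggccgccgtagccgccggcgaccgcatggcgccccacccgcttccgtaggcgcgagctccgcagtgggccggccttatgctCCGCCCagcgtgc
Cox5b: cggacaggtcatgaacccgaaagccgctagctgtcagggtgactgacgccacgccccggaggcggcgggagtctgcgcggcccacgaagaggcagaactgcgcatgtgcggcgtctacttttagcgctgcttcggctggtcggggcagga
Ndufa8: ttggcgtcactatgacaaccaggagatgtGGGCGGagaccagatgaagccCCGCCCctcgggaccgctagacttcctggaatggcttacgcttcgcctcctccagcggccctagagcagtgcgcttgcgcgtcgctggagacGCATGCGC

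Within these windows Ndufb4 and Cox5a each held 1 SP1 match, Ndufc2 held 1 CCAAT match, Cox5b held none of the motifs, and Ndufa8 held 2 SP1 matches and 1 NRF1 match at its 3′ end. Over the 250 bases before the start, the NRF1 letters were found in 10 of 81 members with a listed promoter, 12.3%, against 4.15% of 11485 tested genes. The ETS letters CCGGAAG, a core of the GABP site, were in 15, 18.5% against 12.6%. The CCAAT box was in 36, 44.4% against 36.3%, the SP1 letters in 35, 43.2% against 56.4%, and the YY1 letters AAGATGGC in 0, against 1.89%. A match is only a description of these letters.

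Complex I held 45 of the 96 tested members, 46.9%, and gave 79 of the 153 Ki67 calls, 51.6%. Its calls were 7 members higher and 11 lower in WT microglia of 4 months, 9 higher and 8 lower by 6 months, and 6 higher and 15 lower by 12 months. The APP/PS1 counts, in the same order of age, were 5 higher and 6 lower, 2 higher and 1 lower, and 1 higher and 8 lower. Over all tested genes the shares higher and lower in WT mice were 19.3% and 14.5%, 17.8% and 19%, and 26.2% and 20.1%. In APP/PS1 mice they were 12.3% and 9.24%, 5.21% and 2.6%, and 10.6% and 7.24%. Among the core subunits, Ndufv1, which binds FMN and accepts electrons from NADH, was lower in 5 of 6 comparisons. In WT mice at 4 months its libraries read 7.40, 8.07, 8.14, 8.21 and 8.83 in Ki67+ and 9.25, 9.32, 9.33, 9.50 and 9.81 in Ki67-, listed from lowest to highest. The 2 sets of libraries did not overlap, and the difference was -1.31 ± 0.28 (adjusted p = 0.000739). The APP/PS1 libraries at 4 months read 7.80, 7.98, 8.25 and 8.54 in Ki67+ and 9.20, 9.53, 9.89 and 10.23 in Ki67-, a difference of -1.57 ± 0.31 (adjusted p = 0.00072). It was -1.54 ± 0.34 (adjusted p = 0.000592) in WT mice at 12 months, and -1.60 (adjusted p = 0.0251) with near-identical libraries counted once. The differences at 6 months in WT mice, -1.06 ± 0.40 (adjusted p = 0.0411), and at 12 months in APP/PS1 mice, -1.01 ± 0.31 (adjusted p = 0.0254), were each lost without 3 of the libraries taken in turn, at adjusted p of up to 0.436 and 0.084.

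The other core subunits did not all share this direction. Ndufs3, a core subunit of the peripheral arm, was higher in Ki67+ in WT mice, by 1.05 ± 0.24 (adjusted p = 0.00131) at 4 months, and the call held without each library in turn. At 12 months it was 1.12 ± 0.29 (adjusted p = 0.0026), and 1.11 (adjusted p = 0.0682) with near-identical libraries counted once. Ndufv2, the partner of Ndufv1 in the NADH-binding module, was higher in Ki67+ in WT mice at 6 months, 1.75 ± 0.32 (adjusted p = 0.000148), with libraries at 11.24 and 11.56 in Ki67+ and 9.19, 9.66 and 10.10 in Ki67-. Ndufs8, an iron-sulfur subunit, was lower at 12 months in both genotypes, with differences of -1.45 ± 0.30 (adjusted p = 0.000371) in WT and -1.11 ± 0.28 (adjusted p = 0.00721) in APP/PS1 mice. The WT value was -1.45 (adjusted p = 0.0246) with near-identical libraries counted once, and the APP/PS1 call held without each library in turn. Ndufs1 was called in no comparison, and its Ki67 differences ran from -0.48 to 0.45.

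Of the accessory subunits, Ndufb4 of the membrane arm, whose promoter is shown above, was lower in Ki67+ in 5 comparisons. At 12 months its libraries read 7.11, 7.21, 7.27 and 7.40 in WT Ki67+ and 8.77, 8.77 and 8.80 in WT Ki67-, and 7.64, 7.81, 7.81 and 7.89 in APP/PS1 Ki67+ and 8.26, 8.70, 9.13 and 9.27 in APP/PS1 Ki67-. Neither pair of groups overlapped. The differences were -1.53 ± 0.23 (adjusted p = 8.12e-06) in WT and -1.05 ± 0.21 (adjusted p = 0.00119) in APP/PS1 mice, and the WT value was -1.52 (adjusted p = 0.00296) with near-identical libraries counted once. At 4 months it was -1.04 ± 0.19 (adjusted p = 0.000168) in WT and -0.59 ± 0.21 (adjusted p = 0.0469) in APP/PS1 mice, and the second call was lost without 5 of the 8 libraries taken in turn, at an adjusted p of up to 0.13. Ndufb6, also of the membrane arm, was lower in 4 comparisons, with a difference of -1.72 ± 0.33 (adjusted p = 0.000152) in WT mice at 12 months, and -1.72 (adjusted p = 0.0156) with near-identical libraries counted once.

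Ndufc2, another membrane-arm accessory subunit, ran the other way and was higher in Ki67+ in 5 comparisons. In WT mice at 4 months its libraries read 9.62, 9.71, 9.72, 10.04 and 10.12 in Ki67+ and 8.72, 8.97, 8.99, 9.05 and 9.15 in Ki67-. The APP/PS1 libraries of that age read 10.06, 10.10, 10.12 and 10.34 and 9.0, 9.10, 9.24 and 9.33. The groups did not overlap in either genotype, with differences of 0.86 ± 0.18 (adjusted p = 0.000581) and 0.99 ± 0.20 (adjusted p = 0.0009). At 12 months the difference was 1.36 ± 0.22 (adjusted p = 1.59e-05) in WT mice, 1.34 (adjusted p = 0.00491) with near-identical libraries counted once, and 0.14 ± 0.20 (adjusted p = 0.66) in APP/PS1 mice. Ndufa11 and Ndufb2 were also higher in Ki67+, with their largest differences in WT mice at 6 months, 1.94 ± 0.35 (adjusted p = 0.000123) and 1.79 ± 0.38 (adjusted p = 0.000664), where the oligodendrocyte and microglia marker means of the Ki67+ libraries stood apart. The part of those markers in the values was not tested. At 4 months, Ndufb2 differed by 0.94 ± 0.26 (adjusted p = 0.00719) in WT and 1.08 ± 0.30 (adjusted p = 0.0101) in APP/PS1 mice, and both calls held without each library in turn.

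Assembly factors of complex I were called lower more often than higher. Of 8, 3 were lower in WT mice at 4 months, 3 lower and 1 higher at 6 months, and 4 lower at 12 months. Over all tested genes 14.5%, 19% and 20.1% were lower in these 3 comparisons, and 19.3%, 17.8% and 26.2% higher. Ndufaf7, a methyltransferase that acts during complex I assembly, was lower in 5 comparisons. Its libraries in APP/PS1 mice at 12 months read 7.92, 8.12, 8.57 and 8.61 in Ki67+ and 9.51, 9.63, 9.72 and 10.13 in Ki67-. The groups were separate, and the differences were -1.44 ± 0.29 (adjusted p = 0.00115) in APP/PS1 mice at 12 months and -1.54 ± 0.29 (adjusted p = 0.000433) at 4 months. In WT mice they were -1.71 ± 0.26 (adjusted p = 1.86e-05) at 4 months and -2.11 ± 0.38 (adjusted p = 0.000103) at 6 months, and all 4 of these calls held without each library in turn. In WT mice at 12 months the difference was -1.33 ± 0.31 (adjusted p = 0.00121), and -1.30 (adjusted p = 0.0506) with near-identical libraries counted once. The only Ki67 comparison without a call was APP/PS1 mice at 6 months, -0.34 ± 0.41 (adjusted p = 0.678). Ndufaf2 was the assembly factor called higher, by 1.26 ± 0.28 (adjusted p = 0.00198) in APP/PS1 mice at 4 months.

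**Figure D3:**
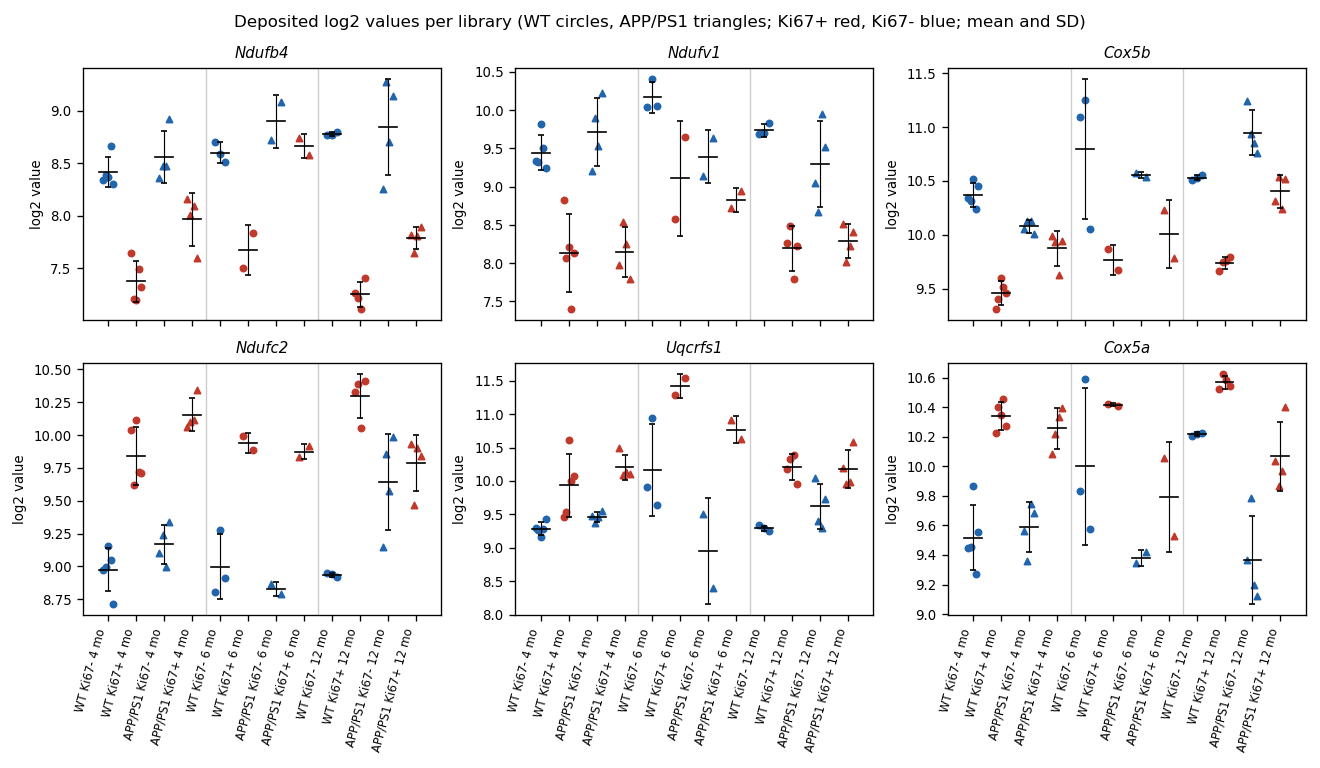
Log2 value per library of Ndufb4, Ndufv1, Cox5b, Ndufc2, Uqcrfs1 and Cox5a in the 12 groups, with 1 point per library, a bar at the group mean and whiskers of 1 SD. By their group means, Ndufb4, Ndufv1 and Cox5b lie lower in Ki67+ than in Ki67- of the same genotype and age, and Ndufc2, Uqcrfs1 and Cox5a lie higher.

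In complex II, which also works in the TCA cycle, Sdhc and Sdhd were called and Sdha and Sdhb were not. Differences between the 4 subunits were not tested. Sdhc, a membrane anchor, was lower in Ki67+ in 4 comparisons, among them WT mice at 4 months, -0.61 ± 0.18 (adjusted p = 0.012), a call that held without each library in turn. Its libraries there read 9.20, 9.25, 9.32, 9.36 and 9.48 in Ki67+ and 9.83, 9.87, 9.93, 9.96 and 10.09 in Ki67-. At 12 months it differed in APP/PS1 mice by -0.67 ± 0.21 (adjusted p = 0.0241), and the call was lost without APP/PS1 Ki67+ 12 months replicate 4 (adjusted p = 0.0647). Sdha, the flavoprotein, and Sdhb, the iron-sulfur subunit, were not called in any comparison, with differences in WT mice at 4 months of -0.27 ± 0.26 (adjusted p = 0.44) and -0.18 ± 0.23 (adjusted p = 0.563). Sdhd, the second anchor, was called once, at 12 months in WT mice, -0.75 ± 0.30 (adjusted p = 0.0432), and the call was not made with near-identical libraries counted once, -0.81 (adjusted p = 0.203). The assembly factor Sdhaf4, which acts on Sdha, was higher in Ki67+ in 3 comparisons, by 0.92 ± 0.21 (adjusted p = 0.00115) in WT and 0.92 ± 0.23 (adjusted p = 0.00533) in APP/PS1 mice at 4 months.

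Complex III calls were mostly higher in Ki67+. Uqcrb was higher in 4 comparisons, including both genotypes at 4 months, 0.74 ± 0.22 (adjusted p = 0.0113) in WT and 1.13 ± 0.25 (adjusted p = 0.00192) in APP/PS1 mice, and these calls held without each library in turn. Uqcrfs1, the Rieske iron-sulfur protein, was higher in 4 comparisons, but its call in WT mice at 4 months, 0.65 ± 0.25 (adjusted p = 0.0495), was lost without 8 of the 10 libraries in turn, at adjusted p of up to 0.145. In WT mice at 12 months its libraries read 9.95, 10.18, 10.33 and 10.39 in Ki67+ and 9.26, 9.29 and 9.33 in Ki67-. They were apart by 0.92 ± 0.31 (adjusted p = 0.0163), and by 0.91 (adjusted p = 0.166) with near-identical libraries counted once. Uqcrh, the hinge protein beside cytochrome c1, was lower in Ki67+ at 12 months in both genotypes, -1.22 ± 0.26 (adjusted p = 0.000443) in WT and -0.93 ± 0.24 (adjusted p = 0.00862) in APP/PS1 mice, and the WT value was -1.21 (adjusted p = 0.0292) with near-identical libraries counted once. Cytochrome c itself, Cycs, was higher in Ki67+ in WT mice at all 3 ages. At 4 months its difference was 0.63 ± 0.22 (adjusted p = 0.0275). That call was lost without WT Ki67+ 4 months replicate 5 (adjusted p = 0.0613), and was not made with library medians subtracted, at 0.54. At 6 months the libraries read 9.65 and 10.30 in Ki67+ and 8.14, 8.35 and 8.62 in Ki67-, and the difference was 1.61 ± 0.32 (adjusted p = 0.000311). At 12 months it was 1.00 ± 0.27 (adjusted p = 0.00345), and 1.02 (adjusted p = 0.0691) with near-identical libraries counted once. Cycs differed in APP/PS1 mice by 0.37 ± 0.25 (adjusted p = 0.293) at 4 months and 0.56 ± 0.25 (adjusted p = 0.115) at 12 months. Cyc1 was not called, although its Ki67+ mean was above the Ki67- mean in each comparison, by 0.65 ± 0.27 (adjusted p = 0.0685) in WT mice at 4 months.

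In complex IV the partner subunits Cox5a and Cox5b moved in opposite directions. Their Ki67 differences ran from 0.35 to 0.82 and from -1.03 to -0.20 over the 6 comparisons. Both were called in the same comparison only in WT mice at 4 months. Cox5a in WT mice at 4 months read 10.22, 10.27, 10.34, 10.40 and 10.45 in Ki67+ and 9.27, 9.45, 9.45, 9.55 and 9.87 in Ki67-, and the groups did not overlap. The difference was 0.82 ± 0.19 (adjusted p = 0.00176), and Cox5a was also higher in APP/PS1 mice at 4 months, 0.67 ± 0.22 (adjusted p = 0.026), and at 12 months, 0.70 ± 0.22 (adjusted p = 0.0241). The call in APP/PS1 mice at 4 months was lost without APP/PS1 Ki67+ 4 months replicate 4 (adjusted p = 0.0526) or APP/PS1 Ki67- 4 months replicate 2 (adjusted p = 0.0669), and was not made with library medians subtracted, at 0.60, and the call at 12 months was lost without 3 of the 8 libraries taken in turn, at an adjusted p of up to 0.0734. Cox5b in the same WT libraries at 4 months read 9.31, 9.40, 9.46, 9.52 and 9.60 in Ki67+ and 10.24, 10.31, 10.34, 10.45 and 10.52 in Ki67-. Its differences were -0.91 ± 0.19 (adjusted p = 0.000503) at 4 months, -1.03 ± 0.27 (adjusted p = 0.00392) at 6 months and -0.79 ± 0.23 (adjusted p = 0.00572) at 12 months, and the last was -0.78 (adjusted p = 0.102) with near-identical libraries counted once. Cox5b was called at no age in APP/PS1 mice, with -0.20 ± 0.21 (adjusted p = 0.51) at 4 months and -0.55 ± 0.21 (adjusted p = 0.0683) at 12 months.

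Most other called subunits of complex IV were lower in Ki67+. Cox6b1, the somatic form of a subunit facing cytochrome c, was lower in 4 comparisons, with differences of -0.75 ± 0.21 (adjusted p = 0.00753) in WT mice at 4 months and -0.78 ± 0.24 (adjusted p = 0.0213) in APP/PS1 mice at 12 months. The second call was lost without APP/PS1 Ki67- 12 months replicate 1 (adjusted p = 0.0583). Its testis form Cox6b2 was not called. Cox4i1, the general form of subunit 4, was lower at 12 months in WT, -0.60 ± 0.20 (adjusted p = 0.0184), and APP/PS1 mice, -0.69 ± 0.19 (adjusted p = 0.0117), and the WT value was -0.58 (adjusted p = 0.184) with near-identical libraries counted once. Cox4i2, the lung and hypoxia form, was lower in WT mice at 4 months, -0.77 ± 0.22 (adjusted p = 0.00907). Cox8a was lower at 12 months in APP/PS1 mice, -0.73 ± 0.19 (adjusted p = 0.00874), and the muscle form Cox8b in WT mice at 6 months, -1.55 ± 0.40 (adjusted p = 0.00372). These lung and muscle forms were weakly expressed. The Cox4i2 means, 6.32 in Ki67+ and 7.09 in Ki67-, and the Cox8b Ki67+ mean, 6.11, lay below 7.40, the median of all deposited values. Cox7a1 and Cox7a2 were not called, and Ndufa4, a subunit of complex IV once assigned to complex I, was called only in WT mice at 12 months, -0.63 ± 0.22 (adjusted p = 0.021), and not with near-identical libraries counted once, -0.61 (adjusted p = 0.188).

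In complex V, Atp5c1, the gamma subunit of the rotating central stalk, was lower in Ki67+ in 5 comparisons. Its APP/PS1 libraries at 12 months read 9.82, 9.89, 10.38 and 10.72 in Ki67+ and 11.10, 11.53, 11.67 and 11.72 in Ki67-, without overlap. The differences were -1.30 ± 0.24 (adjusted p = 0.000421) there, -0.83 ± 0.21 (adjusted p = 0.0038) in WT mice at 4 months and -1.36 ± 0.31 (adjusted p = 0.00118) at 6 months, and these 3 calls held without each library in turn. In WT mice at 12 months the difference was -0.84 ± 0.26 (adjusted p = 0.00928), and -0.86 (adjusted p = 0.115) with near-identical libraries counted once, and the call in APP/PS1 mice at 4 months, -0.74 ± 0.24 (adjusted p = 0.0262), was lost without 3 of the 8 libraries taken in turn, at an adjusted p of up to 0.0677. At 6 months the APP/PS1 difference was -0.08 ± 0.34 (adjusted p = 0.92). Of the 3 genes that encode the same c-ring protein, Atp5g1 and Atp5g3 were lower in Ki67+ in APP/PS1 mice at 12 months, with differences of -1.04 ± 0.31 (adjusted p = 0.0217) and -0.63 ± 0.18 (adjusted p = 0.017), and the first call was lost without 3 of the 8 libraries taken in turn, at an adjusted p of up to 0.0979. Atp5g2 was higher in Ki67+ in WT mice at 12 months, 0.93 ± 0.25 (adjusted p = 0.00381), but 0.95 (adjusted p = 0.0749) with near-identical libraries counted once. Reads of these 3 genes, and of members with processed copies in the genome, can be shared, so their values are uncertain. Of the catalytic pair, Atp5a1 was higher in Ki67+ in WT mice at 4 months, 0.48 ± 0.16 (adjusted p = 0.0226), but was not called with library medians subtracted, at 0.39, and Atp5b differed by 0.19 ± 0.16 (adjusted p = 0.353) without a call. Atpif1, the inhibitor of the reversed enzyme and not itself matched by the naming rule, had a mean of 9.56 in Ki67+, with libraries from 9.23 to 10.01, and 10.59 in the Ki67- libraries of the same WT age group, 12 months, and is given as a value only.

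The second question was whether APP/PS1 and WT microglia of the same gate and age differed. At 4 months no member was called in Ki67+ or Ki67- microglia by limma, where 0.0268% and 0% of all genes were called. At an unadjusted p under 0.05 were 2 and 1 of the 96 members, against 1204 and 740 of 14910 genes. At 6 months 10 members were higher and 2 lower in APP/PS1 Ki67+ microglia, against 6.95% and 2.92% of all genes, with 2 libraries in each group. Only Atp5g3 kept its call without each library in turn. It read 10.09 and 10.17 in APP/PS1 and 8.50 and 8.56 in WT Ki67+ microglia, a difference of 1.60 ± 0.26 (adjusted p = 0.000223). The 12 calls fell to 7 and 2 without WT replicate 1 and 2 in turn, and to 2 and 6 without APP/PS1 replicate 1 and 2 in turn. These 2 groups also differed in the oligodendrocyte marker mean, 12.71 with libraries from 12.20 to 13.22 against 11.61 with libraries from 11.33 to 11.90, and in the microglia marker mean, 14.12 against 12.74, and their part in the calls was not tested. In Ki67- microglia of 6 months no member was called by limma, against 0.0604% of all genes called. At an unadjusted p under 0.05 were 10 of the 96 members and 1062 of 14910 genes.

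At 12 months most calls were higher in APP/PS1. In Ki67+ microglia 12 members were higher and 1 lower, with a median of 0.18 and a background of 4.43% and 5.34%. The 13 calls fell to 7 without WT Ki67+ replicate 1, 2 or 3 or APP/PS1 Ki67+ replicate 2, and to 3 without APP/PS1 Ki67+ replicate 4, and 7 were made with near-identical libraries counted once. Ndufa1, Ndufa2 and Uqcrh kept their calls without each library in turn and with near-identical libraries counted once. Ndufa1, a small accessory subunit of complex I, read 9.55, 9.75, 10.10 and 10.27 in APP/PS1 and 8.61, 8.63, 8.65 and 8.94 in WT Ki67+ microglia. The groups did not overlap, and the differences were 1.21 ± 0.30 (adjusted p = 0.0114) for Ndufa1, 1.04 ± 0.23 (adjusted p = 0.00653) for Ndufa2 and 1.31 ± 0.24 (adjusted p = 0.00137) for Uqcrh. Between the same groups 2 of 6 astrocyte markers were called lower in APP/PS1, and their part was not tested. The member called lower was Atp5a1, -0.56 ± 0.18 (adjusted p = 0.0453), a call lost without 6 of the 8 libraries in turn and, at -0.55 (adjusted p = 0.0853), with near-identical libraries counted once.

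In Ki67- microglia of 12 months 18 members were higher and 3 lower in APP/PS1, with a median of 0.29 and a background of 8.71% and 7.72%. The 21 calls fell to 13 without any 1 of the 3 WT libraries, and to 3 with near-identical libraries counted once, which were Ndufa8, Ndufb9 and Cox6a2, where a single WT library stands against 4. Cox6a2, the heart and muscle form of subunit 6a, read 9.0, 9.06, 9.25 and 9.80 in APP/PS1 and 5.86, 5.94 and 6.01 in WT Ki67- microglia. The 3 WT libraries lay below 7.40, the median of all deposited values. All 4 APP/PS1 libraries were above the 3 WT libraries, and the difference was 3.34 ± 0.37 (adjusted p = 1.04e-06). With the WT libraries counted as 1 the adjusted p was 0.00108, with no spread of its own in the WT group. In Ki67+ microglia Cox6a2 differed by 1.32 ± 0.34 (adjusted p = 0.0165), and the call was lost without APP/PS1 Ki67+ 12 months replicate 4 (adjusted p = 0.0525) or WT Ki67+ 12 months replicate 3 (adjusted p = 0.0533). Cox6a1, the general form of the same subunit, was higher by 1.33 ± 0.25 (adjusted p = 0.000766) in Ki67- microglia, with libraries at 11.37, 11.86, 12.33 and 12.40 in APP/PS1 and 10.63, 10.65 and 10.69 in WT mice. With near-identical libraries counted once this was 1.33 (adjusted p = 0.0603). Cox8a and Cox4i1 were higher by 0.72 ± 0.21 (adjusted p = 0.0166) and 0.71 ± 0.20 (adjusted p = 0.0179), and neither was called with near-identical libraries counted once, at adjusted p of 0.235 and 0.242. Here 3 of 6 astrocyte markers were called lower and 2 of 6 oligodendrocyte markers higher in APP/PS1, and their part was not tested.

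Ndufa8, an accessory subunit of complex I that faces the intermembrane space, was set apart by the WT Ki67- group of 12 months. Its libraries there read 7.30, 7.30 and 7.31, while every other library of the series was at 9.0 or above. The APP/PS1 Ki67- libraries of that age read 9.51, 9.75, 10.24 and 10.75. The difference between genotypes was 2.76 ± 0.27 (adjusted p = 1.91e-07). With the WT libraries counted as 1 the adjusted p was 0.000295, again with the spread taken from the other groups and no replicates on the WT side. The same 3 libraries enter the Ki67 comparison in WT mice, 2.2 ± 0.27 (adjusted p = 7.02e-07), and the age comparison in WT Ki67- microglia, -2.28 ± 0.26 (adjusted p = 1.02e-05). In Ki67+ microglia Ndufa8 differed between genotypes by -0.08 ± 0.25 (adjusted p = 0.873). Cox5a, in contrast, was lower in APP/PS1 Ki67- microglia, -0.85 ± 0.23 (adjusted p = 0.0126), and -0.85 (adjusted p = 0.211) with near-identical libraries counted once.

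**Figure D4:**
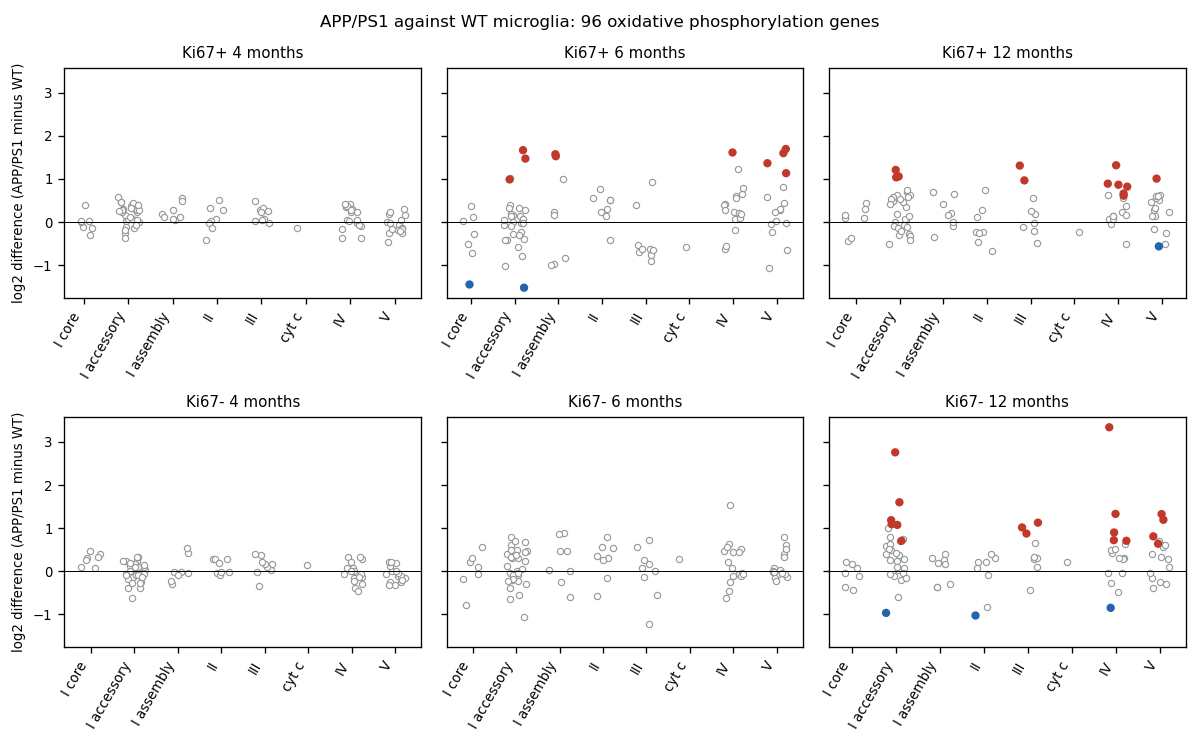
Difference on the log2 scale between APP/PS1 and WT microglia for every tested member, by complex, in Ki67+ and Ki67- microglia at the 3 ages. Each point is 1 gene, filled red where called higher and blue where called lower. No point is called at 4 months, and at 12 months 12 of 13 called points in Ki67+ and 18 of 21 in Ki67- lie above 0.

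The third question was how the genes moved with age within a genotype and gate. From 4 to 12 months, in APP/PS1 Ki67- microglia 16 members rose and none fell, with a median of 0.42 and a background of 2.6% and 1.51%, and 11 of the 16 calls held without each library in turn. In APP/PS1 Ki67+ microglia 6 rose and none fell, with a background of 2.8% and 2.61%. Members at an unadjusted p under 0.05, counted in either direction, numbered 39 of 96 in Ki67- and 23 of 96 in Ki67+. The counts for all tested genes, in the same order, were 2518 and 3100 of 14910. In WT Ki67+ microglia limma called no member, against 0.993% of all genes. There 3 of 96 members were at an unadjusted p under 0.05, a smaller share than the 1981 of 14910 genes. In WT Ki67- microglia 4 rose and 3 fell, against 5.61% and 6.6%. The 7 calls fell to 2 without any 1 of the 3 WT Ki67- libraries of 12 months, and to the fall of Ndufa8 alone with near-identical libraries counted once.

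Complex IV gave 7 of the 16 calls in APP/PS1 Ki67- microglia, complex I gave 5, complex V 3 and complex III 1. These complexes held 17.7%, 46.9%, 16.7% and 9.38% of the tested members, in the same order. Cox6a2 rose most, from 6.00, 6.36, 6.72 and 6.84 at 4 months to the 12 month values given above, a difference of 2.80 ± 0.34 (adjusted p = 8.72e-06). Its 4 month libraries lay below 7.40, the median of all deposited values. In APP/PS1 Ki67+ microglia Cox6a2 rose by 2.01 ± 0.34 (adjusted p = 0.000922), and both calls held without each library in turn. Cox8a, the general form of subunit 8, read 10.54, 10.57, 10.82 and 10.96 in Ki67- at 4 months and 11.94, 11.98, 11.99 and 12.04 at 12 months. The ages did not overlap, and the difference was 1.26 ± 0.19 (adjusted p = 0.000166), with 0.93 ± 0.19 (adjusted p = 0.00415) in Ki67+. Cox6a1, Cox4i1 and Cox7a2l rose in Ki67- by 1.09 ± 0.24 (adjusted p = 0.00602), 0.86 ± 0.19 (adjusted p = 0.00724) and 1.25 ± 0.26 (adjusted p = 0.00482), the last being a protein of respiratory supercomplexes. Ndufa1 rose by 1.93 ± 0.30 (adjusted p = 0.000203), from 8.46, 8.63, 9.18 and 9.33 to libraries between 10.31 and 11.55. Uqcrh of complex III rose by 1.23 ± 0.24 (adjusted p = 0.00244). All of these Ki67- calls held without each library in turn. In WT Ki67- microglia the differences over the same ages were 0.42 ± 0.20 (adjusted p = 0.172) for Cox8a, 0.08 ± 0.24 (adjusted p = 0.892) for Cox6a1 and -0.07 ± 0.31 (adjusted p = 0.934) for Ndufa1, and the difference between genotypes in the age effect was not tested.

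**Figure D5:**
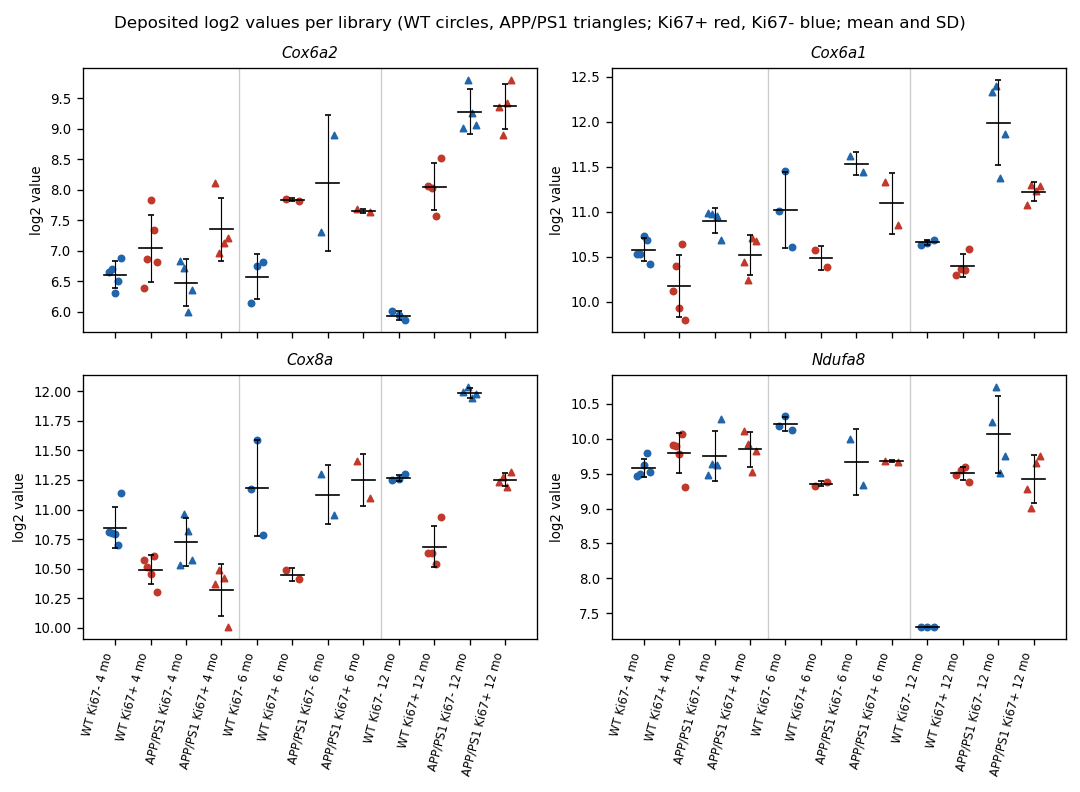
Log2 value per library of Cox6a2, Cox6a1, Cox8a and Ndufa8 in the 12 groups, with 1 point per library, a bar at the group mean and whiskers of 1 SD. Cox6a2, Cox6a1 and Cox8a lie higher in APP/PS1 mice at 12 than at 4 months, and Ndufa8 lies near 7.30 in WT Ki67- at 12 months only.

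From 4 to 6 months calls were made in Ki67+ microglia. In WT mice 17 members rose and 1 fell, with a median of 0.29 against -0.12 over all genes and a background of 9.76% and 16.3%. Of the 17, 11 were of complex I, which held 46.9% of the tested members. The 18 calls fell to 5 without WT Ki67+ replicate 2 of 6 months. Uqcrfs1 rose from 9.46, 9.54, 10.00, 10.07 and 10.62 to 11.29 and 11.55, a difference of 1.48 ± 0.34 (adjusted p = 0.00205), and Ndufa11 rose by 1.84 ± 0.32 (adjusted p = 0.000186). Both calls held without each library in turn, as did the fall of Atp5g3, -0.87 ± 0.22 (adjusted p = 0.00433). In APP/PS1 mice 12 rose and 2 fell, with a background of 6.47% and 7.11%, and the 14 calls fell to 1 and 7 without APP/PS1 Ki67+ replicate 1 and 2 of 6 months in turn. Ndufa9, an accessory subunit at the junction of the 2 arms of complex I, kept its call without each library in turn. It rose by 1.51 ± 0.32 (adjusted p = 0.00199) in APP/PS1 and 1.50 ± 0.31 (adjusted p = 0.000825) in WT Ki67+ microglia. Oligodendrocyte markers averaged 9.62 in WT and 8.98 in APP/PS1 Ki67+ at 4 months, below the 6 month values given above, and their part in the rise was not tested. In Ki67- microglia limma called no member between 4 and 6 months, and 0.134% and 0.181% of all genes in WT and APP/PS1 mice. At an unadjusted p under 0.05 were 16 and 19 of the 96 members, against 1669 and 1466 of 14910 genes. Without WT Ki67- replicate 3 of 6 months 1 member was called in WT mice.

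The last question was whether the Ki67 difference itself depended on genotype, as the Ki67 difference in APP/PS1 minus that in WT mice. At 4 months limma called no member and 0% of all genes, with 3 of 96 members and 860 of 14910 genes at an unadjusted p under 0.05. At 6 months 3 were higher and 1 lower, against 2.33% and 0.537% of all genes, and only Atp5g3 kept its call without each library in turn, 1.76 ± 0.35 (adjusted p = 0.00668). Leaving out 1 library gave between 1 and 4 calls. At 12 months 15 of 96 members were at an unadjusted p under 0.05, a smaller share than the 3597 of 14910 genes. Of the members 5 were called lower and none higher, against 4.46% and 3.55% of all genes. These were Ndufa8, -2.84 ± 0.37 (adjusted p = 6.72e-05), Cox6a2, -2.02 ± 0.51 (adjusted p = 0.0153), Ndufb9, -1.59 ± 0.29 (adjusted p = 0.00227), Ndufc2, -1.22 ± 0.29 (adjusted p = 0.0131), and Atp5g2, -1.18 ± 0.34 (adjusted p = 0.0336). Each rests on the 3 WT Ki67- libraries of 12 months, and with near-identical libraries counted once only Ndufa8 was called, -2.84 (adjusted p = 0.00578), with 1 library in that group and its spread taken from the others. For Cox6a2 the Ki67 difference was 2.11 ± 0.37 (adjusted p = 5.73e-05) in WT mice, 2.11 (adjusted p = 0.00916) with near-identical libraries counted once, and 0.08 ± 0.34 (adjusted p = 0.893) in APP/PS1 mice.

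Related gene lists give the setting of these counts, and like the members they were chosen with earlier results of these data known. Each count is given with its share of the list. Over all tested genes, 19.3% were higher and 14.5% lower in Ki67+ in WT mice at 4 months, 26.2% and 20.1% at 12 months, and 10.6% and 7.24% in APP/PS1 mice at 12 months. Mitochondrial ribosomal proteins make the subunits encoded in mitochondrial DNA. Of 78 tested, 9 (11.5%) higher and 19 (24.4%) lower were called in WT mice at 4 months, 12 (15.4%) and 25 (32.1%) at 12 months, and 3 (3.85%) and 14 (17.9%) in APP/PS1 mice at 12 months. Of 18 TCA cycle genes, the counts for the same 3 comparisons were 6 (33.3%) higher and 4 (22.2%) lower, 6 (33.3%) and 4 (22.2%), and 1 (5.56%) and 1 (5.56%). Of 23 glycolysis genes, 7 (30.4%) higher and 1 (4.35%) lower were called in WT mice at 4 months, and 9 (39.1%) and 2 (8.7%) at 12 months. Of 35 assembly factors that the naming rule does not reach, the WT counts were 3 (8.57%) higher and 3 (8.57%) lower at 4 months and 7 (20%) and 4 (11.4%) at 12 months. The 20 import genes gave, at 12 months in WT mice, 3 (15%) higher and 4 (20%) lower, and the 16 carrier and dynamics genes 3 (18.8%) and 2 (12.5%), shares no larger than those of all genes. In the same comparison the 13 antioxidant genes gave 7 (53.8%) higher and 1 (7.69%) lower, and the 16 regulators of mitochondrial biogenesis 7 (43.8%) and 2 (12.5%).

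With near-identical libraries counted once, the total called in WT mice at 12 months was below that with all libraries in each of these lists. The total over all genes fell as well. That setting leaves WT Ki67- at 12 months as 1 library, so its list counts cannot be set against the background.

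The genotype and age comparisons looked different in these lists. Most cytosolic ribosomal proteins, of 82 tested, were called from 4 to 12 months in APP/PS1 mice, with 64 higher in Ki67- at a median of 1.11, 63 higher in Ki67+ at a median of 1.06, and none lower in either. Against WT mice at 12 months 42 were higher in Ki67+, with a median of 0.81, and 26 in Ki67-, with a median of 0.59, and none lower. With near-identical libraries counted once both counts were lower, and the Ki67- comparison then had 1 WT library. The background of higher calls was 2.6% and 2.8% of all genes with age, and 4.43% and 8.71% between genotypes. The oxidative phosphorylation members had medians of 0.42 and 0.13 in the same 2 age comparisons. Mitochondrial ribosomal proteins had medians of 0.06 and 0.02, and 1 and 2 of 78 were called.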

How the data were processed

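RNA of sorted microglia was copied to full-length cDNA and sequenced on a NextSeq500. The authors demultiplexed with bcl2fastq 2.20, quantified read 1 with kallisto 0.43.1 on GRCm38, normalized with DESeq2 and removed 10 surrogate variables. The deposited values, recorded here as a score on a log2 scale, are not counts, so the depth per library is unknown and no counting interval was given.

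All 42 columns were matched to their labels. Means of 12 groups were fitted with limma 3.58.1 in R 4.3.3, with 20 residual degrees of freedom after the 10 removed directions were counted as spent, and Benjamini-Hochberg adjustment over 14910 genes whose mean reached 7 in any group (4241 left out). Tables and figures used Python 3.11.15 with pandas 2.3.3, numpy 2.4.6 and matplotlib 3.10.9. The fit was tested on simulated data.

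The members and lists were chosen with earlier results of these data known. Genes named were, by rule, the called member of each complex and direction with the lowest p, the 3 largest called differences of each comparison, members called in most Ki67 comparisons, and subunits and isoform pairs fixed for their role. Ndufs3 and Ndufs8 were named outside this rule. Alternatives were all genes tested, removed directions not counted, library medians subtracted, own libraries only and each library left out. Near-identical libraries (correlation above 0.99 within a group) counted once was chosen after seeing the data. The promoters came from RefSeq.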

Additional observations from a re-analysis of the deposited data

Results flagged for a closer look

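For independent libraries, chance places a library far from the rest of its group in about 1 in 20 cases. That rate is only a guide here, since surrogate variables were removed and some libraries are near copies. Among 119 combinations of a member, or of the member mean, with a group of 4 to 10 libraries, 9 held a library far from the rest of its group. In WT Ki67- microglia at 4 months these were replicate 4 for Ndufb4, at 8.66 with the others at 8.30 to 8.38, and replicate 5 for Ndufaf7, at 10.4 with the others at 9.59 to 9.70, for Atp5c1, at 10.8 with the others at 11.2 to 11.3, and for Cox8a, at 11.1 with the others at 10.7 to 10.8. In APP/PS1 mice at 4 months they were Ki67+ replicate 1 for Uqcrfs1, at 10.5 with the others at 10.09 to 10.13, Ki67+ replicate 3 for Cox5b, at 9.63 with the others at 9.94 to 9.99, and Ki67- replicate 4 for Cox6a1, at 10.7 with the others at 10.95 to 10.98. In APP/PS1 mice at 12 months, Ki67- replicate 2 stood at 9.87 for Ndufv2 with the others at 9.45 to 9.48, and Ki67+ replicate 4 had a mean over all tested members of 9.64 with the others at 9.44 to 9.47.

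The Ki67 difference differed between genotypes, by the test of that difference in limma, for 4 members at 6 months. On the log2 scale the Ki67 difference in APP/PS1 minus that in WT mice was 1.76 for Atp5g3, 1.71 for Cox4i2, 2.18 for Ndufaf5 and -1.76 for Ndufv2. The Ki67 difference of Ndufaf5 was -2.31 ± 0.40 (adjusted p = 7.31e-05) in WT and -0.14 ± 0.44 (adjusted p = 0.893) in APP/PS1 mice, and its interaction call was lost without 7 of the 9 libraries taken in turn, at an adjusted p of up to 0.163. For Ndufv2 the call was lost without 5 of the 9 libraries taken in turn, at an adjusted p of up to 0.148, and for Cox4i2 it was lost without 6 of the 9 libraries taken in turn, at an adjusted p of up to 0.288. At 12 months it was -1.18 for Atp5g2, -2.02 for Cox6a2, -2.84 for Ndufa8, -1.59 for Ndufb9 and -1.22 for Ndufc2. Of these, only Ndufa8 was called with near-identical libraries counted once, which leaves WT Ki67- at 12 months as 1 library.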

How the results depend on the processing

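Depth was unknown, and the surrogate removal limits these counts, since 10 directions of spread are missing from the values. No paired analysis was possible because the labels give no replicate numbers shared between groups. The counts below are of tested members, without the share of all tested genes called in the same setting. They show how the counts move with the setting, and not how the members compare with other genes. With the removed directions not counted as spent, the Ki67 counts were 43 (22 higher, 21 lower) in WT mice at 6 months, and 32 (14 and 18), 9 and 34 at the 3 ages of APP/PS1 mice in order. The genotype counts were 23 and 29 in Ki67+ at 6 and 12 months and 3 and 32 in Ki67-. The counts from 4 to 6 months were 29 and 6 in WT and 26 and 5 in APP/PS1 Ki67+ and Ki67-, those from 4 to 12 months 2 and 18 in WT and 17 and 35 in APP/PS1, and the interaction counts 13 at 6 and 13 at 12 months. With own libraries only, the Ki67 counts were 33 (17 and 16) in WT mice at 6 months, and 31 (15 and 16), 2 and 40 at the 3 ages of APP/PS1 mice. The genotype counts at 12 months were 33 in Ki67+ and 39 in Ki67-, those from 4 to 6 months 34 and 14 in WT Ki67+ and Ki67-, those from 4 to 12 months 1 and 24 in WT Ki67+ and Ki67- and 10 in APP/PS1 Ki67+, and the interaction counts 1 and 15. The Ki67 count of APP/PS1 mice at 4 months was 21 (10 and 11) over all genes and 20 (6 and 14) with library medians subtracted. With near-identical libraries counted once, the counts at 12 months were 13 for Ki67 in WT mice, 7 and 3 for genotype in Ki67+ and Ki67-, 1 against 4 months in WT Ki67- and 1 for the interaction, and this setting leaves fewer libraries in the fit, with WT Ki67- at 12 months as 1 library assumed to vary like the other groups.

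Leaving out each library in turn gave Ki67 counts of 26 to 32, 19 to 32 and 36 to 40 in WT mice, and 10 to 16, 0 to 3 and 15 to 22 in APP/PS1 mice. Genotype counts were 2 to 7 and 3 to 15 in Ki67+ at 6 and 12 months and 13 to 22 in Ki67- at 12 months. From 4 to 6 months they were 5 to 18 and 0 to 1 in WT Ki67+ and Ki67- and 1 to 14 in APP/PS1 Ki67+. From 4 to 12 months they were 2 to 7 in WT Ki67-, 4 to 8 in APP/PS1 Ki67+ and 12 to 18 in APP/PS1 Ki67-, and the interaction counts were 1 to 4 and 4 to 7. The more frequent direction of the member calls changed in 7 of these leave-one-out counts, against 152 the same, 26 weaker and 1 stronger. It also changed in 2 counts with own libraries only and 2 with the removed directions not counted. It changed in 1 count each over all genes, with library medians subtracted and with near-identical libraries counted once. Of the called differences of members named by rule, which leaves out Ndufs3 and Ndufs8, none changed direction in the alternatives run. Of 234 such calls, 12 were lost with library medians subtracted, 9 with own libraries only and 4 over all genes. Of those that involve a group with near-identical libraries, 48 remained and 58 were lost when these were counted once. The causes of these losses were not tested, other than the fewer libraries of the last setting.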
